A study of Homo sapiens with 8 samples.

Results

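Loss of SMARCB1, loss of SMARCA4 and loss of both were compared gene by gene to see where the double null differed from what the 2 single losses give when their effects are multiplied. All rows of the authors' deposited table with at least 1000 total reads were taken, 13459 of 19541 rows (68.9%). For each, the departure was the log2 ratio of the double null to wildtype minus both log2 ratios of the single nulls to wildtype. A departure of 0 means that the double null stood where the multiplied single effects put it, a departure of 1 that it stood 2-fold above that level, and a departure of -1 that it stood 2-fold below. RNA was measured by sequencing in HAP1 cells, a near-haploid human line in wide use, in 8 samples that formed 4 groups of 2. Wildtype cells were sampled at passages 9 and 12. SMARCB1-null and SMARCA4-null cells were each sampled at passage 12, from CRISPR guides 1 and 2 for the gene. The double null carried guide 1 for SMARCB1 and guide 2 for SMARCA4 and came from a single line at passages 15 and 18. All cells were grown in the same medium with serum to 70% confluence, and no further treatment is named. Because the double null was a single line at later passages, the departure cannot be told apart from an effect of passage or of that line. The wildtype and double-null spread is that between passages of a line, and p-values measure only the spread between these samples.

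SMARCB1 and SMARCA4 belong to the SWI/SNF (BAF) chromatin remodelling complexes, which slide or evict nucleosomes with the energy of ATP. SMARCA4 is an ATPase of the complexes and SMARCB1 a core subunit that contacts the nucleosome, and either gene is lost in rhabdoid tumours. SMARCA2 is the alternative ATPase, and complexes without SMARCB1 can still form. In genetics, losses whose effects multiply are called independent, and a double mutant that looks like a single mutant shows masking of one loss by the other.

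The per-million scale behind the ratios rested on 99.7 to 151 M reads per library. Reads per library could be worked back from totals and ratios for 2365 members (17.6%), and these carry the tests. For other members a group level was implied by the total and the ratios. Within a group the 2 libraries can be told apart by depth, as deeper and shallower, and carry no passage or guide name. The deeper double-null library stood apart: in it 90 recovered members exceeded every other library more than 4 times, neuronal transcripts among them, and in each of the other 7 libraries at most 2 did. Levels are in CPM, reads scaled to library depth and not divided by gene length. SMARCB1 stood at 70.5 CPM in wildtype, 7.67 CPM in the SMARCB1 null, 68.4 CPM in the SMARCA4 null and 12.8 CPM in the double null. SMARCA4 stood at 393 CPM in wildtype, 373 CPM in the SMARCB1 null, 36.1 CPM in the SMARCA4 null and 59.6 CPM in the double null. Each target was therefore low in the lines named for its loss and near wildtype in the other single null, and both were a little higher in the double null than in their own single null (departures 0.79 and 0.80). SMARCA2 stood at 32 CPM in wildtype, 23.5 CPM in the SMARCB1 null, 33.6 CPM in the SMARCA4 null and 33.8 CPM in the double null, a departure of 0.45. HAP1 derives from a leukaemia line, but 6 blood lineage markers (CD33, CD34, GATA1, PTPRC, SPI1 and SPN) stood at no more than 0.0492 CPM in wildtype and 0.737 CPM in any group. Other blood cell genes were present: the list of blood cell markers, with 13 genes in the data, summed to 9.36 CPM in wildtype and 14.8 CPM in the double null.

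Most members stood near the multiplied level. The median departure was -0.00055, the middle 50% of members lay between -0.23 and 0.25, and 74.6% lay within 0.5 of 0 on the log2 scale. The departure was at least 1 in 1054 members (7.83%) and at most -1 in 588 members (4.37%). Over all rows of the table, with low totals included, the same shares were 17.2% and 8.65%. Of the members with departures past 1, 315 above and 48 below had fewer than 0.1 CPM (10 reads in a library of 100 M) in some group or at the multiplied level, and their departures rest on few reads. Among the 13080 members at 0.1 CPM or more throughout, 739 stood at least 1 above and 540 at least 1 below. In the authors' deposited table, 3782 members passed an FDR of 0.05 in at least 1 comparison with wildtype, and of these 385 (10.2%) stood at least 1 above and 395 (10.4%) at least 1 below. No error can be put on a departure from the ratios alone.

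**Figure D1:**
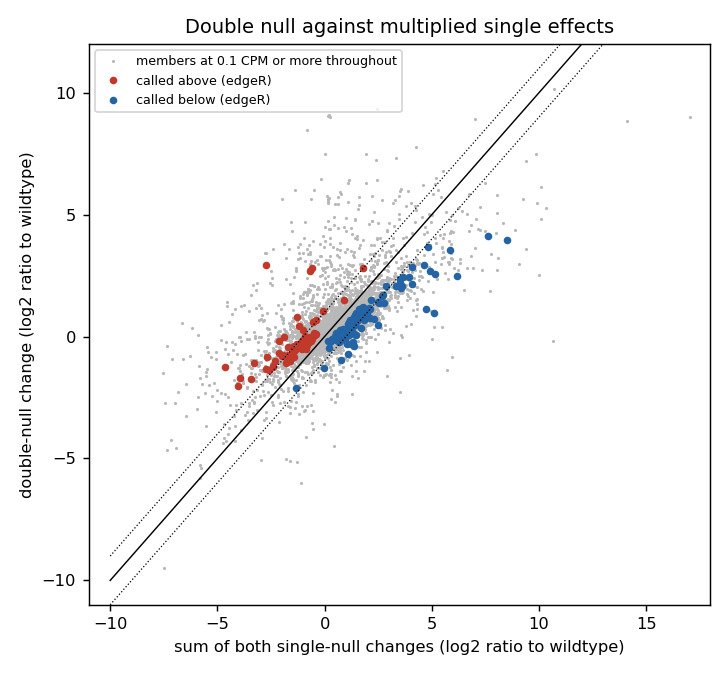
Double-null change (y axis, log2 ratio to wildtype) against the sum of both single-null changes (x axis, log2) for 13060 members at 0.1 CPM or more in every group and at the multiplied level. Grey points are members, red and blue points are members called above or below by edgeR on recovered reads, the solid line marks multiplied effects and the dotted lines a departure of 1 in either direction. The blue points lie mostly at positive sums and the red points mostly at negative sums.

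The deeper double-null library moved the counts. Among the 2365 recovered members, 173 (7.32%) stood at least 1 above and 67 (2.83%) at least 1 below. Without the deeper double-null library these were 99 and 110, of which 90 and 58 were also counted with all 8 libraries. Without any of the other 7 libraries the count above ranged from 167 to 191 and the count below from 64 to 88. Of the 173 members above, 80 (46.2%) had over 90% of their double-null level in the deeper library, against 3.72% of all recovered members. Neuronal transcripts were among those high in it. NEFL, a neurofilament subunit, stood at 0.00833 and 1.2 CPM in the wildtype libraries, 3.56 and 2.79 in the SMARCB1-null, 1.14 and 0.124 in the SMARCA4-null and 742 and 27.1 in the double-null libraries. GABBR2, a GABA-B receptor subunit, stood at 0.025 and 0.17 CPM in the wildtype libraries, 0.243 and 0.151 in the SMARCB1-null, 0.266 and 0.238 in the SMARCA4-null and 28.4 and 0.873 in the double-null libraries. NCAN, the neural proteoglycan neurocan, stood at 0.050 and 0.14 CPM in the wildtype libraries, 0.291 and 0.271 in the SMARCB1-null, 0.362 and 0.286 in the SMARCA4-null and 29.5 and 0.90 in the double-null libraries. All 3 genes were far higher in the deeper than in the shallower double-null library. Of the neuronal and neuroendocrine markers, 28 of 36 members had departures of at least 1 and 1 had a departure of at most -1 (range -9.16 to 9.67). Reads were recovered for 8 of all 40 listed genes, members or not. The summed level of these 8 was 1238 CPM in the deeper and 174 CPM in the shallower double-null library, against 13.1 to 41.1 CPM in the other 6. Of the skeletal muscle markers, 12 of 14 members had departures of at most -1. Reads were recovered for 6 of all 23 listed genes in the data, members or not. The summed level of these 6 was 26.1 CPM in the deeper SMARCB1-null library and 0.143 to 0.728 CPM in the other 7. Over all 23 the implied SMARCB1-null level summed to 241 CPM, so most of it was not divided by library. The part of these transcripts in other departures was not tested.

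**Figure D2:**
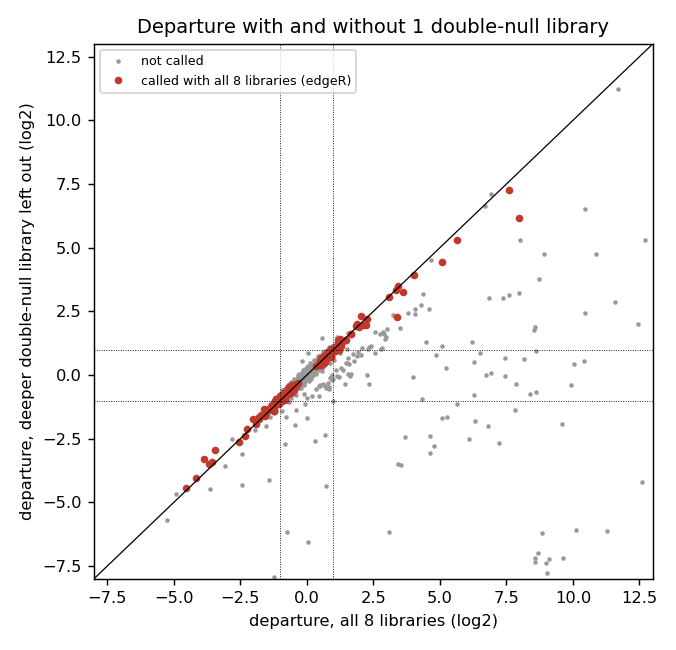
Departure of 2361 recovered members without the deeper double-null library (y axis, log2) against the departure with all 8 libraries (x axis, log2); 16 points lie outside the axes. Red points are members called by edgeR with all 8 libraries and lie close to the line of equal values, dotted lines mark departures of 1 and -1, and the points far below the line at the right are members whose double-null reads lie mostly in the deeper library.

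Members that both single losses moved the same way mostly fell short of the multiplied level. Among all members the authors' deposited table called 8.86% higher and 6.84% lower with SMARCB1 lost, 8.32% and 5.42% with SMARCA4 lost, and 12.6% and 7.66% with both lost. In the authors' deposited table, 495 members rose and 396 fell in both single nulls. Of those that rose, 450 also rose in the double null, 43 were not called there and 2 fell. Of those that fell, 334 also fell, 58 were not called and 4 rose. The median log2 changes of the 495 were 0.71 with SMARCB1 lost, 0.68 with SMARCA4 lost and 0.77 with both lost, while their sums had a median of 1.42. The median log2 changes of the 396 were -0.53, -0.52 and -0.56, and their sums had a median of -1.07. The double null therefore moved these genes about as far as 1 loss did. Of the 495, 14 went beyond the sum of both single changes in the double null, 238 lay between the larger single change and the sum, 128 between the 2 single changes, and 115 short of both. Of the 396, the counts in the same order were 11, 134, 112 and 139. The departure was at most -1 in 137 of the 495 and at least 1 in none, and at least 1 in 108 of the 396 and at most -1 in 2. All 3 ratios share the wildtype libraries and the single-null libraries entered the choice, so a lean of the departure against the single changes is partly built into these classes. On recovered reads, where 113 and 66 of these members were fitted, leaving out each library in turn kept the median departure between -0.57 and -0.50 for the first class and between 0.57 and 0.62 for the second.

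**Figure D3:**
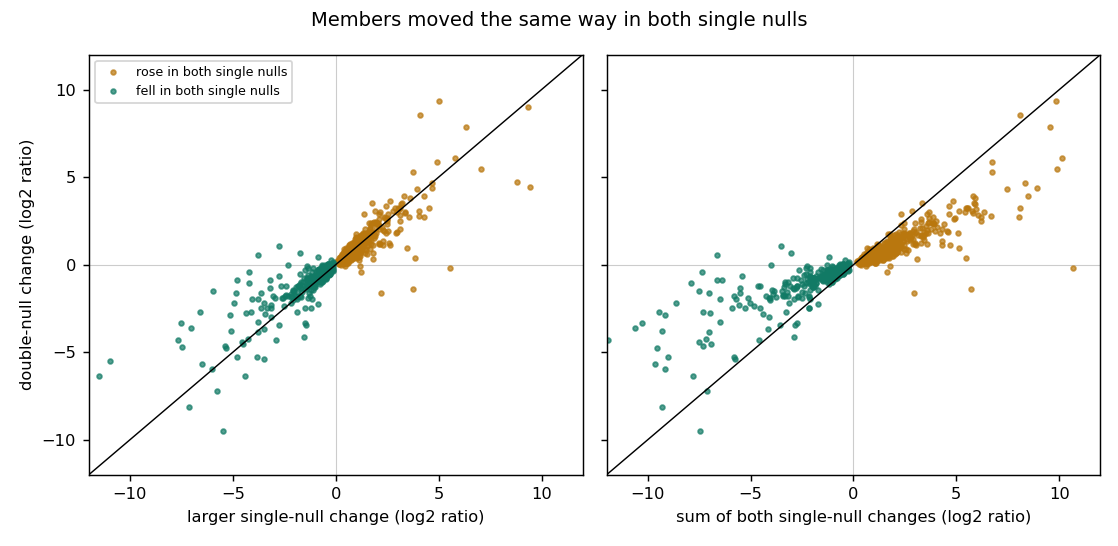
Double-null change (y axis, log2 ratio to wildtype) against the larger single-null change (left) and against the sum of both (right) for the 891 members that moved the same way in both single nulls in the authors' deposited table; 7 points lie outside the axes. Orange points rose and green points fell in both single nulls, and the diagonal marks equal values; the points scatter around it on the left and are flatter than it on the right.

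A test of the departure itself was possible on recovered reads. The interaction contrast of edgeR's quasi-likelihood test, adjusted over all 4139 recovered genes fitted, called 203 of 2336 members (8.69%), 81 above the multiplied level (3.47%) and 122 below (5.22%). Over all 4139 recovered genes fitted, low totals included, the shares were 7.05%, 3.31% above and 3.74% below. At an unadjusted p under 0.05 there were 559. Of the 203, 78 had a departure of at least 1 in size, 34 above and 44 below, and the median size over all 203 was 0.81. A fit without 1 library leaves its group with 1 library and no spread of its own. A call kept in such a fit therefore does not show that it is independent of the library left out. Without the deeper wildtype library the calls fell to 42 above and 74 below, with 114 of the 203 shared, and without the shallower to 38 and 69, with 106 shared. They were also fewer without the deeper SMARCA4-null library (51 and 79, 124 shared) or the shallower (42 and 85, 123 shared), and more without the shallower double-null library (209 and 190, 199 shared). Of the 113 fitted members that rose in both single nulls 44 were called, all below, and of the 66 that fell in both 31 were called, all above. Both classes were chosen on the wildtype and single-null libraries that also enter the contrast, so the direction of these calls is partly built in. Leaving out a library kept the same members, and so gives no independent check of that direction. Of the 126 fitted members called in the double null alone by the authors, 1 was called. Against a single null, the same fit called 125 of the 2336 members (5.35%) between the double null and the SMARCB1 null, 89 higher (3.81%) and 36 lower (1.54%), and 400 (17.1%) between the double null and the SMARCA4 null, 245 higher (10.5%) and 155 lower (6.64%); both contrasts share the double-null libraries.

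The leading calls below the multiplied level were mostly genes higher in both single nulls and little or no higher in the double null. QPCT, which encodes glutaminyl cyclase, stood at 0.258 and 0.23 CPM in the wildtype libraries, 4.0 and 4.86 in the SMARCB1-null, 5.23 and 4.47 in the SMARCA4-null and 3.5 and 4.03 in the double-null libraries. All 6 null libraries lay far above wildtype, between 3.5 and 5.23 CPM, while multiplied effects would have put the double null at 88 CPM. The departure was -4.54 ± 0.314 on the log2 scale (SE, edgeR quasi-likelihood test, adjusted p = 1.57e-06). ELOVL3, an elongase of very long fatty acids, stood at 1.03 and 1.15 CPM in the wildtype libraries, 11 and 7.82 in the SMARCB1-null, 9.7 and 8.61 in the SMARCA4-null and 5.28 and 7.01 in the double-null libraries, against a multiplied level of 78.8 CPM. Its departure was -3.68 ± 0.282 on the log2 scale (SE, edgeR quasi-likelihood test, adjusted p = 3.94e-06). ADM, the vasodilator peptide adrenomedullin and a hypoxia-induced gene, stood at 3.08 and 3.82 CPM in the wildtype libraries, 17.8 and 19.9 in the SMARCB1-null, 19 and 19.5 in the SMARCA4-null and 20.5 and 24 in the double-null libraries. The double-null libraries lay just above the others and far from the multiplied level of 104 CPM, a departure of -2.24 ± 0.173 on the log2 scale (SE, edgeR quasi-likelihood test, adjusted p = 3.94e-06). PROC, which encodes the anticoagulant protein C, stood at 0.317 and 0.27 CPM in the wildtype libraries, 0.621 and 1.22 in the SMARCB1-null, 3.0 and 3.48 in the SMARCA4-null and 0.523 and 0.612 in the double-null libraries, so the SMARCA4-null level was not kept when SMARCB1 was also lost. Its departure was -4.16 ± 0.469 on the log2 scale (SE, edgeR quasi-likelihood test, adjusted p = 9.71e-05), and the double null lay below the SMARCA4 null by edgeR (log2 -2.51, adjusted p = 2.11e-04). LOC101929524 also lay lower in the double null than in either single null, with 0.342 and 0.399 CPM in the wildtype libraries, 1.5 and 1.64 in the SMARCB1-null, 1.94 and 2.65 in the SMARCA4-null and 0.742 and 0.90 in the double-null libraries and a departure of -3.56 ± 0.394 on the log2 scale (SE, edgeR quasi-likelihood test, adjusted p = 9.37e-05). CYP4F22, a hydroxylase of very long fatty acids in skin lipid synthesis, had 19 and 8 reads in the wildtype libraries, 118 and 110 in the SMARCB1-null, 292 and 292 in the SMARCA4-null and 178 and 337 in the double-null libraries, with a departure of -3.45 ± 0.673 on the log2 scale (SE, edgeR quasi-likelihood test, adjusted p = 0.0188); its call was lost under voom and without any of 5 libraries in turn. LOC100506790 had 178 and 235 reads in the wildtype libraries, 15 and 13 in the SMARCB1-null, 360 and 241 in the SMARCA4-null and 1 and 2 in the double-null libraries, with too few double-null reads for a fold change (edgeR, adjusted p = 0.00106).

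H2AFY2, MAN2A1 and MAP3K5 were chosen after their values were seen, for their small adjusted p-values. H2AFY2, the histone variant macroH2A2, stood at 4.64 and 4.55 CPM in the wildtype libraries, 43.3 and 43.7 in the SMARCB1-null, 27.4 and 29.3 in the SMARCA4-null and 56.8 and 51 in the double-null libraries. Every null library was at least 27.4 CPM, and the departure was -2.32 ± 0.124 on the log2 scale (SE, edgeR quasi-likelihood test, adjusted p = 2.36e-07) from a multiplied level of 269 CPM. MAN2A1, a Golgi mannosidase that trims N-glycans, stood at 50.6 and 47 CPM in the wildtype libraries, 55.5 and 61.5 in the SMARCB1-null, 107 and 108 in the SMARCA4-null and 35.4 and 38.6 in the double-null libraries, raised in the SMARCA4 null and below wildtype in both double-null libraries. Its departure was -1.80 ± 0.124 on the log2 scale (SE, edgeR quasi-likelihood test, adjusted p = 1.57e-06). MAP3K5, the stress-activated kinase ASK1, stood at 20.6 and 19.8 CPM in the wildtype libraries, 33.3 and 29.6 in the SMARCB1-null, 27.2 and 27.9 in the SMARCA4-null and 11.3 and 13.6 in the double-null libraries. Both single nulls lay above wildtype and the double null below it, with no overlap, and the departure was -1.78 ± 0.143 on the log2 scale (SE, edgeR quasi-likelihood test, adjusted p = 4.91e-06).

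Above the multiplied level, the named calls were mostly genes lower in at least 1 single null, or highest when both genes were lost. NPY1R, a receptor of neuropeptide Y, stood at 4.48 and 4.61 CPM in the wildtype libraries, 0.553 and 0.532 in the SMARCB1-null, 0.827 and 0.515 in the SMARCA4-null and 1.41 and 1.21 in the double-null libraries. Every null library lay below wildtype, and the double null was not lower but somewhat higher than either single null, 4.03 ± 0.392 on the log2 scale (SE, edgeR quasi-likelihood test, adjusted p = 2.95e-05) above the multiplied level of 0.0804 CPM. SEMA3D, a secreted guidance semaphorin, stood at 0.75 and 0.759 CPM in the wildtype libraries, 0.165 and 0.261 in the SMARCB1-null, 0.443 and 0.372 in the SMARCA4-null and 6.85 and 4.54 in the double-null libraries. It was below wildtype in each single-null library and above it in both double-null libraries, a departure of 5.62 ± 0.438 on the log2 scale (SE, edgeR quasi-likelihood test, adjusted p = 3.97e-06). ALDH1A1, a retinaldehyde dehydrogenase, had 3 and 4 reads in the wildtype libraries, 24 and 14 in the SMARCB1-null, 10 and 3 in the SMARCA4-null and 673 and 315 in the double-null libraries. Both double-null libraries lay far above all others, with a departure of 3.58 ± 0.709 on the log2 scale (SE, edgeR quasi-likelihood test, adjusted p = 0.00779); its call was lost under voom and without the shallower wildtype library. BMP2, a secreted BMP ligand, stood at 6.63 and 5.61 CPM in the wildtype libraries, 1.44 and 2.69 in the SMARCB1-null, 0.0517 and 0.143 in the SMARCA4-null and 1.49 and 0.711 in the double-null libraries, nearly absent from the SMARCA4 null and present in the double null. Its departure was 5.09 ± 0.869 on the log2 scale (SE, edgeR quasi-likelihood test, adjusted p = 0.0268), a call lost without either wildtype or either SMARCB1-null library. ZNF385D, a zinc finger gene, had 460 and 239 reads in the wildtype libraries, 591 and 729 in the SMARCB1-null, 0 and 1 in the SMARCA4-null and 360 and 175 in the double-null libraries, with too few SMARCA4-null reads for a fold change (edgeR, adjusted p = 0.00135). SPSB4, an adaptor of ubiquitin ligases, had 171 and 162 reads in the wildtype libraries, 18 and 18 in the SMARCB1-null, 16 and 6 in the SMARCA4-null and 666 and 83 in the double-null libraries, a departure of 7.93 ± 1.39 on the log2 scale (SE, edgeR quasi-likelihood test, adjusted p = 0.0407). Its double-null libraries differed widely, and the call was lost under voom and without any of the 6 wildtype and single-null libraries. BTG2, an antiproliferative p53 target chosen after its values were seen, stood at 21.7 and 25 CPM in the wildtype libraries, 10.9 and 11.6 in the SMARCB1-null, 13.1 and 11.5 in the SMARCA4-null and 13.8 and 13.4 in the double-null libraries, with the double null just above the single nulls. Its departure was 1.19 ± 0.153 on the log2 scale (SE, edgeR quasi-likelihood test, adjusted p = 2.73e-04).

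**Figure D4:**
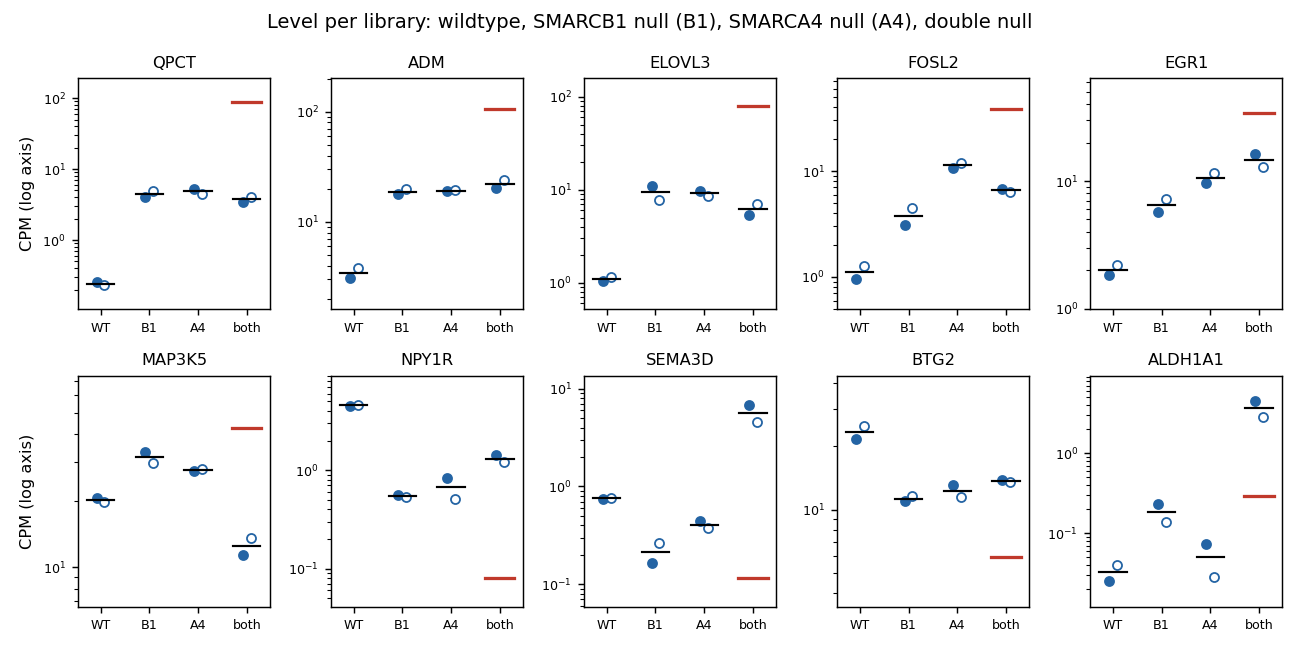
Level in each library (y axis, CPM, log axis) of 10 genes called by edgeR, with the 4 groups on the x axis (WT wildtype, B1 SMARCB1 null, A4 SMARCA4 null, both double null). Filled points are the deeper and open points the shallower library of a group, black lines the group mean, and the red line the level that multiplied single effects give for the double null. In QPCT, ADM and ELOVL3 the 3 null groups share a level far under the red line, and in NPY1R, SEMA3D, BTG2 and ALDH1A1 the double null lies above it.

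The promoters of 6 genes called by edgeR are shown, QPCT and SEMA3D as leading calls below and above the multiplied level, and ADM, FOSL2, EGR1 and NPY1R because they carry matches to the motifs searched. QPCT and SEMA3D hold no match in this window, and nor does ALDH1A1. The sequences are the 250 bases before the RefSeq start (build GRCh38.p14), 5′ to 3′ on the gene's strand, and capitals mark motif matches on either strand. In ADM the match is a TATA box (TATAAA), in FOSL2 and NPY1R the hypoxia response core (ACGTG), and in EGR1 the hypoxia response core and 2 CArG boxes, the sites of serum response factor. CACGTG, as in NPY1R, holds ACGTG on both strands.
QPCT, chr2:37344380-37344629, plus strand: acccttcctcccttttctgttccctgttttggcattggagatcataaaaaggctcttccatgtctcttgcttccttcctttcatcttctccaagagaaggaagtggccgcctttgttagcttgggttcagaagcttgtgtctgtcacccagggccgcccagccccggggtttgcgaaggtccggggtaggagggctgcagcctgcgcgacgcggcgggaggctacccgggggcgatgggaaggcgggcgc
SEMA3D, chr7:85187057-85187306, minus strand: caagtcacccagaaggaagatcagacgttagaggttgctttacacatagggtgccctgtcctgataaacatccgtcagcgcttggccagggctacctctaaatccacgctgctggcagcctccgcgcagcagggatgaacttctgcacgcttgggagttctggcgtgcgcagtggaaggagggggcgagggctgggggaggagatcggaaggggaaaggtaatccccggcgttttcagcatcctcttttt
ADM, chr11:10304823-10305072, plus strand: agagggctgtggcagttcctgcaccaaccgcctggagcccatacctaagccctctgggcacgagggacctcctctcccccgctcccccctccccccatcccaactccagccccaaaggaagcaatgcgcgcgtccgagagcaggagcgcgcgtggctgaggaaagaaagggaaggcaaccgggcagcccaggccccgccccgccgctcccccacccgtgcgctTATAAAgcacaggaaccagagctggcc
FOSL2, chr2:28392608-28392857, plus strand: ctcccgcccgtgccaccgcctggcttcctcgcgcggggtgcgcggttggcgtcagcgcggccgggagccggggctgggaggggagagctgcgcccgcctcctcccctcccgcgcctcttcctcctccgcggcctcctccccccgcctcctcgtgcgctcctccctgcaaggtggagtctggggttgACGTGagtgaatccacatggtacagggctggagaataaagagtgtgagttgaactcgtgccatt
EGR1, chr5:138465229-138465478, plus strand: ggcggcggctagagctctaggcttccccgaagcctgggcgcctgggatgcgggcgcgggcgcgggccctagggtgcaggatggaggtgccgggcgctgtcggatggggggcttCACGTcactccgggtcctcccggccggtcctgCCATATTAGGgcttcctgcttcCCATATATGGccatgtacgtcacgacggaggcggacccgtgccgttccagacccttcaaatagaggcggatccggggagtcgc
NPY1R, chr4:163332597-163332846, minus strand: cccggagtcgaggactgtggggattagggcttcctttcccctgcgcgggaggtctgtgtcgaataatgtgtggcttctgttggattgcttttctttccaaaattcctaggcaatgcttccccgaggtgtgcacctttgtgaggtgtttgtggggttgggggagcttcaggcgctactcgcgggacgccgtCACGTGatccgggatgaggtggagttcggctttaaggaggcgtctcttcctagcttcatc

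Motif shares were counted over the same 250 bases for 532 members at least 1 above, 385 at least 1 below and 7514 within 0.5, all at 0.1 CPM or more. ACGTG stood in 16.2% of promoters of members at least 1 above, 15.3% of those at least 1 below, 24.6% of those within 0.5 and 18.5% of all 27305 promoters. TATAAA stood in 8.83% of promoters of members at least 1 above, 7.53% of those at least 1 below, 4.45% of those within 0.5 and 11.3% of all 27305 promoters. The AP-1 site TGANTCA stood in 5.45% of promoters of members at least 1 above, 4.16% of those at least 1 below, 3.58% of those within 0.5 and 6.74% of all 27305 promoters. The cyclic AMP response site TGACGTCA stood in 2.63% of promoters of members at least 1 above, 1.82% of those at least 1 below, 3.19% of those within 0.5 and 1.74% of all 27305 promoters, and the CArG box in 1.13% of promoters of members at least 1 above, 1.56% of those at least 1 below, 0.838% of those within 0.5 and 1.18% of all 27305 promoters. Among members called by edgeR, of which 56 above and 97 below had a promoter in the RefSeq table, ACGTG stood in 17.9% above and 22.7% below, and TATAAA in 3.57% above and 7.22% below. TATAAA was thus at a higher share in members past 1 in either direction than in those within 0.5, but not in members called above. These shares are a description with no test.

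Among members at 0.1 CPM or more with a call in the authors' deposited table, the lowest departures belonged mostly to genes higher in the single nulls. These values come from the ratios and carry no error. SLC16A12, a membrane transporter of the monocarboxylate family, stood at 0.211 CPM in wildtype, 10 CPM in the SMARCB1 null, 7.21 CPM in the SMARCA4 null and 0.189 CPM in the double null, a departure of -10.82. It rose in both single nulls (FDR 0.00664 and 0.0158 in the authors' deposited table), and the double null was at the wildtype level. MYOF, the membrane repair protein myoferlin, stood at 0.156 CPM in wildtype, 32.7 CPM in the SMARCB1 null, 101 CPM in the SMARCA4 null and 79.9 CPM in the double null, a departure of -8.06. It rose in all 3 null groups, and the double null lay between the single nulls. GPR126, an adhesion G-protein-coupled receptor, stood at 4.28 CPM in wildtype, 16.3 CPM in the SMARCB1 null, 58.6 CPM in the SMARCA4 null and 1.66 CPM in the double null, a departure of -7.07. NEDD9, a focal adhesion scaffold, stood at 13.4 CPM in wildtype, 41.1 CPM in the SMARCB1 null, 194 CPM in the SMARCA4 null and 17.6 CPM in the double null, a departure of -5.08. GPR126 and NEDD9 rose in both single nulls in the authors' deposited table, and their double-null levels were not called different from wildtype (FDR 0.376 and 0.554). ARHGEF28, a guanine nucleotide exchange factor, stood at 1.88 CPM in wildtype, 36.5 CPM in the SMARCB1 null, 25.3 CPM in the SMARCA4 null and 12.5 CPM in the double null, a departure of -5.29. In the authors' deposited table it rose in all 3 null groups (FDR 0.0058 for the double null). CYP26A1, which degrades retinoic acid, rose in the SMARCA4 null alone, with 0.67 CPM in wildtype, 2.11 CPM in the SMARCB1 null, 44.3 CPM in the SMARCA4 null and 2.48 CPM in the double null. KIAA1217 followed the same pattern with 5.12 CPM in wildtype, 6.44 CPM in the SMARCB1 null, 46.8 CPM in the SMARCA4 null and 1.06 CPM in the double null. OSMR, the oncostatin M receptor, stood at 24.1 CPM in wildtype, 21.7 CPM in the SMARCB1 null, 36.2 CPM in the SMARCA4 null and 1.06 CPM in the double null, and the authors' deposited table called it in the double null alone (FDR 1.11e-04). The remaining 4 of the 12 lowest were SNCAIP (-6.06), CLSTN2 (-5.81), the potassium channel KCNK9 (-5.25) and SYBU (-5.06), which stood above wildtype in all 3 null groups.

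The highest departures in the same set were mostly genes lowered by a single loss and near the wildtype level in the double null. IGFBP5, a secreted binding protein of insulin-like growth factors, stood at 16.7 CPM in wildtype, 2.29 CPM in the SMARCB1 null, 1.22 CPM in the SMARCA4 null and 24.8 CPM in the double null, a departure of 7.21. It fell in both single nulls (FDR 0.0388 and 0.0066 in the authors' deposited table) and was not called in the double null (FDR 0.957). FRY, a regulator of NDR kinases, had the same pattern at 17.5 CPM in wildtype, 0.959 CPM in the SMARCB1 null, 1.96 CPM in the SMARCA4 null and 13.2 CPM in the double null, a departure of 6.95. APELA, a peptide ligand of the apelin receptor, stood at 18.1 CPM in wildtype, 5.07 CPM in the SMARCB1 null, 0.659 CPM in the SMARCA4 null and 9.68 CPM in the double null, a departure of 5.71. LMO3, a LIM-only transcription cofactor, stood at 21.8 CPM in wildtype, 7.29 CPM in the SMARCB1 null, 0.353 CPM in the SMARCA4 null and 7.74 CPM in the double null, a departure of 6.03. LMO3 fell in all 3 null groups, with the double null at the SMARCB1-null level. CD24, a cell surface glycoprotein, stood at 129 CPM in wildtype, 1.36 CPM in the SMARCB1 null, 89.9 CPM in the SMARCA4 null and 68.9 CPM in the double null. BASP1, a growth-cone membrane protein, stood at 98.4 CPM in wildtype, 3.47 CPM in the SMARCB1 null, 46.9 CPM in the SMARCA4 null and 102 CPM in the double null. ROBO2, a receptor of SLIT proteins, stood at 10.9 CPM in wildtype, 0.43 CPM in the SMARCB1 null, 6.11 CPM in the SMARCA4 null and 8.13 CPM in the double null. These 3 fell in the SMARCB1 null alone in the authors' deposited table, with departures of 6.19, 5.94 and 5.08. BCHE, butyrylcholinesterase, and CNKSR2, a scaffold of Ras signalling, fell in the SMARCA4 null alone, with departures of 5.48 and 5.23. NEFL, GABBR2 and SEMA3D completed the 12. Of the 12, reads per library were recovered for NEFL, GABBR2 and SEMA3D, so how the double-null level of the other 9 divides between its libraries was not measured here.

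The largest departures among the remaining members, with fewer than 0.1 CPM in a group or at the multiplied level, are described by level, without a fold. The edgeR departures of ALDH1A1, SPSB4, BMP2 and NPY1R given with their SE also rest on such low levels, with ALDH1A1 at 3 and 4 reads in wildtype and multiplied levels of 0.011, 0.0332 and 0.0804 CPM for SPSB4, BMP2 and NPY1R. HPGD, which breaks down prostaglandins, stood at 39.1 CPM in wildtype, 0.0542 CPM in the SMARCB1 null, 0.0133 CPM in the SMARCA4 null and 0.48 CPM in the double null. The double null thus held more than either single null and far less than wildtype. MME, the membrane endopeptidase neprilysin, stood at 19.8 CPM in wildtype, 0.00987 CPM in the SMARCB1 null, 0.015 CPM in the SMARCA4 null and 0.439 CPM in the double null, and the carbonic anhydrase-related CA8 had 920 and 698 reads in the wildtype libraries, 4 and 2 in the SMARCB1-null, 0 and 1 in the SMARCA4-null and 127 and 7 in the double-null libraries. MGAT4C, a glycosyltransferase gene, had 652 and 445 reads in the wildtype libraries, 0 and 0 in the SMARCB1-null, 3 and 2 in the SMARCA4-null and 103 and 4 in the double-null libraries, with most double-null reads in the deeper library. TMEFF2 and CSRNP3 stood at 9.25 and 11.9 CPM in the double null and at 0.00842 and 0.0134 CPM in the SMARCA4 null. In the other direction, SLC17A8, a vesicular glutamate transporter, stood at 0.0247 CPM in wildtype, 2.21 CPM in the SMARCB1 null, 17.1 CPM in the SMARCA4 null and 0.526 CPM in the double null. NLRP2, of the NOD-like receptor family, stood at 0.0406 CPM in wildtype, 1.3 CPM in the SMARCB1 null, 18.3 CPM in the SMARCA4 null and 1.05 CPM in the double null. Both rose in all 3 null groups in the authors' deposited table, and the double null was the lowest of the 3. The neuropeptide gene VIP stood at 5.16, 0.388 and 9.95 CPM with SMARCB1, SMARCA4 or both lost, and was almost without reads in wildtype. The sodium channel SCN3A stood at 0.0959 CPM in wildtype, 31.7 CPM in the SMARCB1 null, 134 CPM in the SMARCA4 null and 77.4 CPM in the double null, the water channel AQP4 at 0.0489 CPM in wildtype, 95.6 CPM in the SMARCB1 null, 14.8 CPM in the SMARCA4 null and 209 CPM in the double null, and GIMAP4, an immune-associated GTPase, at 0.00837 CPM in wildtype, 15.3 CPM in the SMARCB1 null, 0.0315 CPM in the SMARCA4 null and 0.302 CPM in the double null.

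A few members went beyond the sum of both single changes. Of the 396 that fell in both single nulls, 11 fell further than the sum in the double null. MET, the receptor of hepatocyte growth factor, stood at 112 CPM in wildtype, 38 CPM in the SMARCB1 null, 43.9 CPM in the SMARCA4 null and 6.33 CPM in the double null, a departure of -1.24. ALDH1A2, which makes retinoic acid, stood at 83.6 CPM in wildtype, 20.7 CPM in the SMARCB1 null, 1.9 CPM in the SMARCA4 null and 0.118 CPM in the double null, a departure of -1.99. FOXA1, a pioneer transcription factor, stood at 79.7 CPM in wildtype, 40.2 CPM in the SMARCB1 null, 35.2 CPM in the SMARCA4 null and 14.5 CPM in the double null, a departure of -0.29. TNS3, an adhesion protein, ATP10D, a lipid flippase, and TMEM200A had departures of -0.30, -0.52 and -0.57. Of the 495 that rose in both, 14 rose further than the sum. SYNE1, a nuclear envelope spectrin-repeat protein, stood at 9.76 CPM in wildtype, 29.1 CPM in the SMARCB1 null, 32.8 CPM in the SMARCA4 null and 114 CPM in the double null, a departure of 0.23. RASD1, a Ras-like GTPase, had the largest at 0.61, and GAS1, a hedgehog co-receptor, stood 0.21 above. These genes were chosen after their values were seen, and departures from the ratios carry no error. Over all members 74.6% lay within 0.5 of 0, and FOXA1, TNS3, SYNE1 and GAS1 lie in that range. Such small departures were not told apart from multiplied effects. In 6 members the double null was called against both single nulls. SPCS3, a signal peptidase subunit, and the noncoding LINC00086 rose in both single nulls and fell in the double null, with SPCS3 at 164 CPM in wildtype, 213 CPM in the SMARCB1 null, 385 CPM in the SMARCA4 null and 122 CPM in the double null. LINC00086 stood at 29.4 CPM in wildtype, 49.3 CPM in the SMARCB1 null, 134 CPM in the SMARCA4 null and 9.51 CPM in the double null. PARK2, the ubiquitin ligase parkin, FAM46A, TMEM254 and ZNF784 fell in both and rose in the double null, with departures of 4.57, 1.65, 0.65 and 0.38.

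Where the single losses moved a gene in opposite directions, the double null lay nearer the SMARCB1 null. There were 114 such members in the authors' deposited table, of which the double null was called with the direction of the SMARCB1 null in 69, with that of the SMARCA4 null in 5 (ADD1, CANX, KCNH3, STXBP2 and TCEAL3) and not called in 40. On the log2 scale the double null was nearer the SMARCB1 null in 98 of the 114, with a median distance of 0.29 against 0.88 to the SMARCA4 null. Among the 21 recovered ones it was nearer in 18, in 17 without the deeper and in 15 without the shallower double-null library. The median departure was 0.25 in the 46 that rose with SMARCB1 lost and fell with SMARCA4 lost, with 11 at 1 or above and 0 at -1 or below. It was -0.28 in the 68 with the reverse pattern, with 4 at 1 or above and 10 at -1 or below. The 4 with the largest double-null change fell in the SMARCB1 null, rose in the SMARCA4 null and fell in the double null. PTGER3, a prostaglandin E2 receptor, stood at 38.7 CPM in wildtype, 2.71 CPM in the SMARCB1 null, 161 CPM in the SMARCA4 null and 1.19 CPM in the double null, a departure of -3.24. GPC3, a cell surface glypican, stood at 157 CPM in wildtype, 49.3 CPM in the SMARCB1 null, 499.9 CPM in the SMARCA4 null and 13.3 CPM in the double null, a departure of -3.56. ATP10A, a lipid flippase, and THSD4, a matrix protein, departed by -2.53 and -2.07. In all 4 the double null was lower than either single null.

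Members called in 1 single null and the double null mostly moved the same way in both. Of 1041 such members, the SMARCB1 null gave the call in 727, and the double null had the same direction in 720 of them, with median log2 changes of 0.38 in the SMARCB1 null and 0.40 in the double null. The SMARCA4 null gave the call in 314, and the double null had the same direction in 272, with medians of 0.37 and 0.33. Both comparisons share the wildtype libraries, so agreement in direction is partly built into this class. IGF2, the growth factor, stood at 1.33 CPM in wildtype, 312 CPM in the SMARCB1 null, 0.728 CPM in the SMARCA4 null and 654 CPM in the double null, called higher in the SMARCB1 null and the double null (departure 1.94). LIX1 and SYNPO2 rose in the same 2 groups, with departures of -2.36 and -2.21, and so did the potassium channel KCNK9. A further 910 members were called in 1 single null and not in the double null, 530 with the SMARCA4 null and 380 with the SMARCB1 null. Among the 530 the median log2 change was 0.47 with SMARCA4 lost and 0.04 with both lost, with 101 departures of at most -1 and 37 of at least 1. Among the 380 the medians were 0.30 and 0.09. A call in one group and not in another does not show that they differ. Among these, DMKN, the epidermal protein dermokine, and FAM19A4 rose in the SMARCA4 null and CEACAM1, an adhesion molecule, and NCALD, a calcium sensor, rose in the SMARCB1 null. DMKN, CEACAM1, NCALD and FAM19A4 had double-null levels of 5.58, 2.8, 9.18 and 0.11 CPM against 0.414, 0.228, 0.163 and 3.64 CPM in wildtype.

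In the double null alone 826 members were called, 594 higher and 232 lower. The 594 already leaned the same way in the single nulls, with medians of 0.36 and 0.27 against 0.94 on the log2 scale in the double null, and their departure had a median of 0.23, with 126 at least 1 above and 13 at least 1 below. The 232 had medians of -0.18, -0.13 and -0.45. Among 100 recovered members that rose, both double-null libraries lay above all 6 others in 77, and 6 had over 90% of their double-null level in the deeper library. Among 26 recovered members that fell, both lay below all others in 17. All these members were chosen by their double-null call in the same libraries. The separation of the double-null libraries, and a lean of the departure with it, is therefore partly built in. The edgeR interaction contrast called 1 of the 126 of them that were fitted. NEFL, NCAN and GABBR2, among the members with the largest double-null change here, had most of their double-null level in the deeper library.

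Gene lists are described by counts beside those over all members. Departures given without an SE come from the ratios and carry no error, and genes named for a list need not have a call in any comparison. Over all members 50.1% lay below 0, 4.37% at -1 or below and 7.83% at 1 or above. The authors' deposited table called 8.86% of all members higher and 6.84% lower with SMARCB1 lost. With SMARCA4 lost these shares were 8.32% and 5.42%, and with both lost 12.6% and 7.66%. Of 35 genes of hypoxia response and glycolysis, 31 lay below 0, 8 at -1 or below and 1 at 1 or above, with a median of -0.48. In the authors' deposited table, 19 of the 35 rose in the SMARCA4 null and 0 fell, 4 rose and 1 fell with SMARCB1 lost, and 4 rose and 7 fell with both lost. EGLN3, an oxygen-sensing prolyl hydroxylase, stood at 7.96 CPM in wildtype, 3.99 CPM in the SMARCB1 null, 19.4 CPM in the SMARCA4 null and 1.35 CPM in the double null. SLC16A3, the lactate exporter, stood at 16.2 CPM in wildtype, 11.7 CPM in the SMARCB1 null, 72.6 CPM in the SMARCA4 null and 11.9 CPM in the double null. DDIT4, an mTOR inhibitor induced by hypoxia, rose in all 3 null groups, with 11.7 CPM in wildtype, 36.4 CPM in the SMARCB1 null, 91.9 CPM in the SMARCA4 null and 43.2 CPM in the double null. Their departures were -2.85, -2.14 and -2.72, and ADM is given above. Of 24 genes of cholesterol synthesis, 21 lay below 0 and none past 1 in either direction, with a median of -0.30; 9 rose in the SMARCA4 null, and 1 rose and 4 fell in the double null. INSIG1, DHCR7 and CYP51A1 departed by -0.99, -0.89 and -0.82. MVD, mevalonate decarboxylase, stood at 24.5 and 26.3 CPM in the wildtype libraries, 27.1 and 27.5 in the SMARCB1-null, 41.7 and 49.5 in the SMARCA4-null and 28.3 and 31.3 in the double-null libraries, a departure of -0.72 ± 0.139 on the log2 scale (SE, edgeR quasi-likelihood test, adjusted p = 0.00638).

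Of 21 immediate-early and AP-1 genes, which respond within minutes to growth signals, 15 lay below 0, 7 at -1 or below and 1 at 1 or above, with a median of -0.59. Of 9 fitted, 4 were called, all below, where 5.22% of all fitted members were called below. FOSL2, an AP-1 subunit, stood at 0.958 and 1.26 CPM in the wildtype libraries, 3.11 and 4.47 in the SMARCB1-null, 10.7 and 12 in the SMARCA4-null and 6.77 and 6.36 in the double-null libraries, with the double null between the single nulls. Its departure was -2.56 ± 0.286 on the log2 scale (SE, edgeR quasi-likelihood test, adjusted p = 9.51e-05). EGR1, a zinc finger factor induced by serum, stood at 1.83 and 2.19 CPM in the wildtype libraries, 5.74 and 7.27 in the SMARCB1-null, 9.63 and 11.7 in the SMARCA4-null and 16.2 and 13 in the double-null libraries, highest in the double null but under the multiplied level of 34.6 CPM, a departure of -1.24 ± 0.241 on the log2 scale (SE, edgeR quasi-likelihood test, adjusted p = 0.00646). KLF2 stood at 2.93 and 3.45 CPM in the wildtype libraries, 3.77 and 3.67 in the SMARCB1-null, 10.2 and 13.5 in the SMARCA4-null and 5.39 and 5.43 in the double-null libraries and departed by -1.35 ± 0.244 on the log2 scale (SE, edgeR quasi-likelihood test, adjusted p = 0.00429). JUNB departed by -0.61 ± 0.132 on the log2 scale (SE, edgeR quasi-likelihood test, adjusted p = 0.0123). NR4A3, ATF3 and EGR3 had departures of -2.77, -2.35 and -2.26 from the ratios, and EGR3 rose in all 3 null groups in the authors' deposited table. Of the ERK feedback genes, DUSP4 departed by 4.35, SPRY2 by 1.92, ETV4 by -1.79 and SPRY1 by -1.40. DUSP4 and SPRY2 had no call in the authors' deposited table. The departure of SPRY2 was not called by edgeR (quasi-likelihood test, adjusted p = 0.188), and its double-null libraries stood at 5.74 and 1.89 CPM. DUSP7 was called above, at 0.52 ± 0.131 on the log2 scale (SE, edgeR quasi-likelihood test, adjusted p = 0.0272). The list had a median of 0.18, with 3 of 17 at 1 or above and 3 at -1 or below.

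Of 15 genes of MHC class I antigen presentation 14 lay below 0 and 2 at -1 or below, with a median of -0.58. In the authors' deposited table, 9 rose with SMARCA4 lost, 4 with SMARCB1 lost and 4 with both lost. The shares that rose over all members were 8.32%, 8.86% and 12.6% in the same order. NLRC5, the transactivator of these genes, and the immunoproteasome subunit PSMB9 departed by -2.09 and -1.78, and the peptide transporters TAP1 and TAP2 by -0.86 and -0.87. Of 19 interferon-stimulated genes 12 lay below 0 and 3 at -1 or below (median -0.19). IFI35 stood at 1.05 and 1.17 CPM in the wildtype libraries, 2.72 and 2.71 in the SMARCB1-null, 5.13 and 5.66 in the SMARCA4-null and 3.55 and 5.17 in the double-null libraries, a departure of -1.60 ± 0.314 on the log2 scale (SE, edgeR quasi-likelihood test, adjusted p = 0.00689). ISG15, a ubiquitin-like protein, stood at 2.91 and 3.4 CPM in the wildtype libraries, 7.51 and 6.65 in the SMARCB1-null, 7.12 and 9.01 in the SMARCA4-null and 6.76 and 9.5 in the double-null libraries, a departure of -1.16 ± 0.269 on the log2 scale (SE, edgeR quasi-likelihood test, adjusted p = 0.0183). The RNA sensor IFIH1 departed by -1.70 and TRIM22 by -0.69. Of 22 clustered protocadherins, neuronal adhesion genes, 12 lay at 1 or above and 2 at -1 or below, with a median of 1.77 that was 0.86 over the 19 at 0.1 CPM or more. PCDHGB6, PCDHGC4 and PCDHA6 stood at 6.11, 6.07 and 5.74 CPM in the double null and at no more than 0.185 CPM elsewhere, with no call in the authors' deposited table. PCDHAC2 stood at 7.69 CPM in wildtype, 0.545 CPM in the SMARCB1 null, 2.37 CPM in the SMARCA4 null and 2.8 CPM in the double null. Reads of these genes were not recovered, and how they divide between the double-null libraries was not measured here.

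Developmental pathways held single genes with large departures around a median near 0. Of 32 TGF-beta and BMP genes (median -0.02) 5 lay at 1 or above and 4 at -1 or below. TGFB3 stood at 4.14 and 3.93 CPM in the wildtype libraries, 14.5 and 17.9 in the SMARCB1-null, 11.8 and 11.5 in the SMARCA4-null and 17.8 and 23.3 in the double-null libraries, a departure of -1.18 ± 0.194 on the log2 scale (SE, edgeR quasi-likelihood test, adjusted p = 0.00226). The BMP antagonist NOG, BMP4 and TGFB2 departed by 3.39, -1.99 and 1.56, and NOG and TGFB2 had no call in the authors' deposited table. BMP7 had 257 and 164 reads in the wildtype libraries, 1672 and 92 in the SMARCB1-null, 6358 and 446 in the SMARCA4-null and 261 and 44 in the double-null libraries; its libraries differed within each group, and the departure of -6.75 ± 2.78 on the log2 scale (SE, edgeR quasi-likelihood test, adjusted p = 0.292) was not called. Of 34 Wnt genes (median 0.22) 5 lay at 1 or above and 3 at -1 or below. WNT3 stood at 11.4 CPM in wildtype, 11.7 CPM in the SMARCB1 null, 78.7 CPM in the SMARCA4 null and 13.8 CPM in the double null, raised in the SMARCA4 null alone, a departure of -2.54. The co-receptor LRP6 departed by -1.38, the antagonist DKK3 by 4.81 and the receptor FZD8 by 3.88. DKK3 and FZD8 had no call in the authors' deposited table, and their reads were not recovered. WNT10B was called below at -1.07 ± 0.258 on the log2 scale (SE, edgeR quasi-likelihood test, adjusted p = 0.0225). Of 13 hedgehog genes (median 0.11) the co-receptor BOC departed by -3.27, the factor GLI3 by -1.16 and the acyltransferase HHAT by 1.00; DISP1, which releases the ligand, stood at 2.32 and 2.76 CPM in the wildtype libraries, 3.64 and 3.3 in the SMARCB1-null, 1.83 and 1.66 in the SMARCA4-null and 5.41 and 5.25 in the double-null libraries, a departure of 1.16 ± 0.286 on the log2 scale (SE, edgeR quasi-likelihood test, adjusted p = 0.0249). Of 25 HOX genes (median 0.22) 3 lay at 1 or above and none at -1 or below. HOXC13, HOXB9 and HOXC10 departed by 2.07, 1.62 and 1.13, with no call in the authors' deposited table. The departure of HOXC10 was not called by edgeR (quasi-likelihood test, adjusted p = 0.65), and its SMARCA4-null libraries stood at 0.753 and 2.93 CPM. HOXA5 was called above at 0.91 ± 0.233 on the log2 scale (SE, edgeR quasi-likelihood test, adjusted p = 0.0309). Of 24 early embryonic regulators (median 0.10) OTX2 fell in all 3 null groups and stood at 193 CPM in wildtype, 17.5 CPM in the SMARCB1 null, 65.4 CPM in the SMARCA4 null and 42.7 CPM in the double null, a departure of 2.85. DPPA2 departed by -3.64, GATA6 by -2.54 and ZIC2 by 1.27.

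Matrix and cytoskeleton genes were mixed. Of 20 collagens (median 0.24) 4 lay at 1 or above and 5 at -1 or below; COL2A1 fell in all 3 null groups and stood at 214 CPM in wildtype, 62.5 CPM in the SMARCB1 null, 51.1 CPM in the SMARCA4 null and 74.8 CPM in the double null, a departure of 2.33, while COL4A6, COL9A2 and COL5A2 departed by 1.89, -1.31 and -1.27. Of 20 integrins and laminins (median -0.19) LAMA4, LAMA2 and LAMB1 departed by 3.53, 2.35 and 1.36 and ITGA6 by -1.99. Of 20 SRF targets (median -0.16) ACTA1, TPM2 and VCL departed by -2.29, -2.02 and -0.77 and CALD1 by 1.44. ACTA1 is also on the list of skeletal muscle markers. It stood at 53.1 CPM in the SMARCB1 null and 0.535 CPM in wildtype, with no call in the authors' deposited table (FDR 0.791). Of 23 YAP-TEAD targets (median -0.06) VGLL3 departed by 1.88, F3 by -1.56 and NUAK2 by -0.74. The departure of NUAK2 was not called by edgeR (quasi-likelihood test, adjusted p = 0.195). Of 21 p53 targets (median -0.01) the death receptor FAS departed by -2.04, PHLDA3 by 1.88 and SESN1 by -0.99. Of 30 ATF4 and unfolded protein response genes 22 lay below 0 (median -0.28), with CHAC1 at -1.85, ASNS at -0.87 and VLDLR at 0.90.

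Ribosomal protein, respiratory chain and Polycomb genes stayed close to the multiplied level, while some cell cycle genes did not. All 62 cytosolic ribosomal protein genes lay between -0.55 and 0.05 (median -0.13), with 56 of them below 0 against 50.1% of all members. In the authors' deposited table, 22 of them fell with both genes lost, 5 with SMARCB1 lost and 2 with SMARCA4 lost. The shares that fell over all members were 7.66%, 6.84% and 5.42% in the same order. RPL13A departed by -0.55, and RPL29, RPSA and RPS2 by -0.32, -0.29 and -0.28. Of 58 nuclear respiratory chain genes 47 lay below 0 (median -0.15, lowest -0.62 in ATP5E, with SDHB, ATP5G1 and UQCRC2 at -0.46, -0.46 and -0.45). Of 40 cell cycle genes (median 0.09) 4 lay at 1 or above and none at -1 or below. The G1 genes CCND2 and CDK6 fell in the SMARCB1 null and the double null, CDK6 also in the SMARCA4 null, with CDK6 at 101 CPM in wildtype, 13.3 CPM in the SMARCB1 null, 45.7 CPM in the SMARCA4 null and 27.1 CPM in the double null; their departures were 2.77 and 2.18, and the inhibitors CDKN1C and CDKN2D departed by 1.47 and 1.15. Of 28 SWI/SNF subunit genes 20 lay above 0 and 1 at 1 or above (median 0.22). PBRM1, the polybromo subunit of PBAF, was called above at 0.50 ± 0.114 on the log2 scale (SE, edgeR quasi-likelihood test, adjusted p = 0.0155), with SMARCD3 and DPF1 at 0.64 and 0.63. All 31 Polycomb genes lay between -0.65 and 0.77 (median 0.03). PCGF3 was called above at 0.50 ± 0.122 on the log2 scale (SE, edgeR quasi-likelihood test, adjusted p = 0.0235), and AEBP2, EED, CBX2 and PHC2 departed by 0.77, 0.76, 0.67 and -0.65. The 3 blood cell marker members ranged from -2.53 to 0.81, and the 14 muscle marker members from -3.62 to -0.82. Of the calls named for list members, those of ISG15 and JUNB were lost without the shallower SMARCA4-null library and without a wildtype library (the deeper for ISG15, the shallower for JUNB). Those of PBRM1, DISP1, DUSP7, HOXA5, WNT10B and PCGF3 were each lost without at least 3 of the 8 libraries in turn, among them a wildtype and a SMARCA4-null library, with adjusted p of up to 0.138 by edgeR. With no filter on low counts the calls of ISG15, DUSP7, HOXA5, PBRM1, PCGF3 and WNT10B were lost too (edgeR, adjusted p of 0.0599 to 0.0777).

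**Figure D5:**
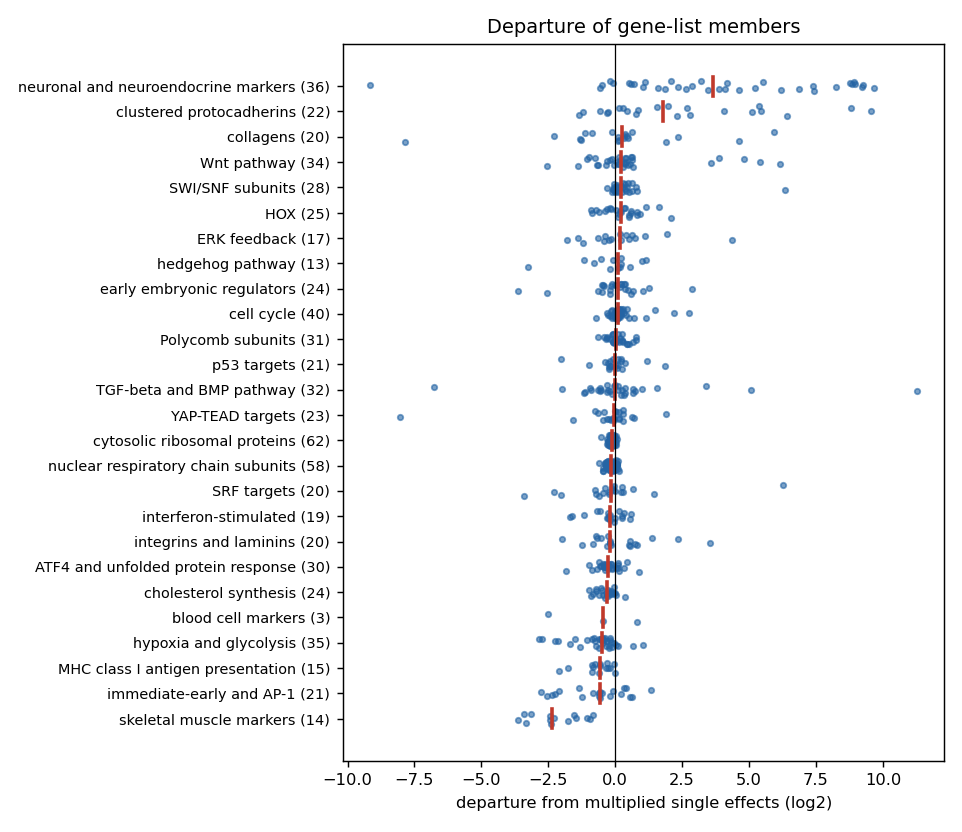
Departure from multiplied single effects (x axis, log2) of the members of 26 gene lists, 1 row per list with the number of members in brackets. Blue points are genes, red bars the median of a list and the vertical line multiplied effects; neuronal markers and clustered protocadherins lie to the right, muscle markers, immediate-early, MHC class I and hypoxia genes to the left, and the ribosomal protein genes close to 0.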

How the data were processed

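RNA from 8 HAP1 samples in 4 groups of 2 was sequenced from a stranded mRNA kit, per the labels' protocols. Reads were aligned with STAR to hg19 and analysed in Partek 4.0, per the submitters' processing notes; which counter, annotation and normalization were used is not given in the sources used here. Both deposited tables were used. The authors deposited 2 tables of comparisons with wildtype, which give per gene a total read count (an estimated count, not always whole), a p-value with its FDR, a linear ratio and a signed fold change (a score that is the ratio, or minus its inverse under 1), with no column per sample. The smaller deposited table holds 409 genes, of which 408 matched members, and 3 of their departures differed by more than 0.1 from those of the larger.

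The ratios were found to equal the mean CPM of a group over that of wildtype after adding 0.0001 to each. That offset is an assumption under which all 8 library depths come out as whole multiples of 100 reads, within 0.000121 reads. Group levels were implied from the total and the ratios, with a median error of 0.265% to 0.275% where reads were known. Reads per library were solved for genes with whole totals and accepted where fewer than 1e-04 chance solutions were expected, which gave 6074 genes, 2365 of them members. These 2365 had a median total of 14939 reads against 22166 over all members. The interaction contrast (wildtype plus double null minus both single nulls) was tested with edgeR 4.0.16 (quasi-likelihood, robust, R 4.3.3) on these reads with the recovered depths, Benjamini-Hochberg adjusted, after edgeR's filter on low counts. The steps were tested on simulated data. Alternatives were TMM, voom (limma 3.58.1), DESeq2 1.42.0, no filter, other thresholds and leaving out each library. Python 3.11.15 with numpy 2.4.6 and pandas 2.3.3 was used otherwise.

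Nearest the floor of 1000 total reads stood PCDHB9 (1000.31 reads, departure 0.79) and FUT1 (1001.04, 0.78) inside, and KY (999, 0.97) and LOC101929340 (999, -0.52) outside. Genes were named by rule: the 12 largest departures in each direction among members with a call by the authors and levels of 0.1 CPM or more, the 6 largest in each direction at lower levels, the 6 largest edgeR calls in each direction, the 4 largest double-null changes of each class of calls, and up to 4 largest departures of each gene list. Others are said to have been chosen after their values were seen. The members and the 26 gene lists were chosen with earlier results of these data known. Date-like symbols stood in 21 rows and are not named. A gene that the rule names is not reported here.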

Additional observations from a re-analysis of the deposited data

Results flagged for a closer look

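The difference of 1 gene's loss with and without the other was tested by the edgeR interaction contrast, and it passed an adjusted p of 0.05 in 203 members. The 6 leading genes above the multiplied level had adjusted p of 0.0407 (SPSB4), 0.00135 (ZNF385D), 3.97e-06 (SEMA3D), 0.0268 (BMP2), 2.95e-05 (NPY1R) and 0.00779 (ALDH1A1) by edgeR. The 6 leading genes below it had adjusted p of 1.57e-06 (QPCT), 9.71e-05 (PROC), 0.00106 (LOC100506790), 3.94e-06 (ELOVL3), 9.37e-05 (LOC101929524) and 0.0188 (CYP4F22) by edgeR. Of these, the calls of SPSB4, BMP2, ALDH1A1 and CYP4F22 were lost under at least 1 alternative.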

How the results depend on the processing

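The counts of members at least 1 above and below the multiplied level (1054 and 588) were 414 and 361 with a floor of 5000 total reads, 1652 and 1269 at a 1.5-fold threshold, 645 and 200 at a log2 threshold of 2, and 385 above among members called by the authors. On recovered reads (173 and 67), leaving out each library in turn gave 99 to 191 above and 64 to 110 below, an alternative chosen after seeing the data. The edgeR calls (81 above, 122 below) became 160 above with DESeq2, 47 and 75 with no filter on low counts, and 38 to 209 above and 69 to 190 below as each library was left out, fewest without the shallower wildtype and most without the shallower double-null library. Of the 203 genes called, 198 were shared under TMM, 187 under voom, 203 under DESeq2, 122 with no filter and 106 to 199 without a library. Under the authors' FDR of 0.05 with at least a 2-fold change, 215 members moved the same way in both single nulls, 20 in opposite directions (73 at an FDR of 0.01), 364 were called in 1 single null and the double null, 349 in 1 single null only and 401 in the double null only. With levels of at least 0.1 CPM the list medians became 0.86 for protocadherins, 3.19 for neuronal and -1.26 for muscle markers. Of 372 alternative values of the 31 calls named, 314 kept the call, 58 in 12 genes lost it, and 0 reversed direction; the cause was not tested. Fits without a library leave its group with 1 library, so a call kept in them does not show independence from that library. No paired analysis was possible because the tables have no sample columns and the recovered libraries carry no replicate number. Recovered members are 17.6% of all, so most departures have no replicate check, and those under 0.1 CPM rest on few reads.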
